A study of Mus musculus with 3 samples.

Results

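Brown and inguinal fat cells were compared by their open chromatin, mapped with DNase-seq, a method that reads as tags the DNA ends left where DNase I, a nuclease, reaches the DNA. The brown library (BAT) came from brown fat pooled from interscapular, cervical and axillary depots. The inguinal library (iWAT) came from the white fat depot under the skin of the groin. Both began as stromal-vascular cells of male NMRI mice aged 4 to 5 weeks, and both were differentiated in medium with 30 nM insulin, 10% newborn calf serum and 1 µM rosiglitazone and harvested 8 days after plating. The nuclease was used at 120 U/ml, and each culture had to exceed 50% differentiated cells. All libraries thus share rosiglitazone, and a culture may hold cells that did not differentiate. Another library, from epididymal white fat (eWAT) and grown in the same way, took no part in choosing the sites and serves as a separate readout.

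The members were chosen by the authors' normalized tag count, a tag number scaled to a library total (not given in the sources used). Each list was limited to as many of its highest sites as the BAT list holds, which keeps the whole BAT list and 76.4% of the 63214 sites of the iWAT list. Sites that overlapped by at least 1 bp were paired as shared. Of the unshared sites, those in the top 25% of their list (12077 sites, called strong here) with no site of the other list within 1 kb were kept as distant sites. This gave 27644 shared pairs, 530 distant BAT sites and 608 distant iWAT sites, or 56426 sites of the 172496 in the 3 lists. Sites are 222 bp wide in both lists, apart from 1 site in each, and positions are those of the deposited lists in build mm9. Annotation and sequence of that build were not used here, so no site is assigned to a gene and the marker genes of fat cells were not checked.

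DNase I hypersensitive sites mark promoters, enhancers and insulators, places where proteins bound to DNA keep nucleosomes away. Brown fat cells burn fuel to make heat through uncoupled mitochondria. Inguinal white fat stores lipid but can form brown-like (beige) cells on cold exposure, and rosiglitazone, which activates the fat cell regulator PPARγ, is known to favour brown-like features in cultured white fat cells. Both cell types rest on PPARγ and C/EBP factors, and they are known to differ in regulators such as PRDM16 and EBF2.

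There was 1 library per depot, so no difference has a replicate error and no test between depots was made. The number of cultures or animals behind a library is not stated in the sources used. Intervals on shares are exact (Clopper-Pearson) 95% intervals, and intervals on tag numbers are exact 95% Poisson intervals. Neither covers more than counting error, and sites close to each other share their surroundings. The normalized counts were whole multiples of 0.857 in BAT and 0.985 in iWAT, taken as the worth of 1 tag. With a common scaling total, the depth of BAT would be 1.15 times and that of eWAT 1.66 times that of iWAT, so equal tag numbers in different libraries are not equal signals. The median site held 14 tags in BAT and 17 in the limited iWAT list. The lowest kept site held 7 tags in BAT and 10 in iWAT, and a strong site held at least 21 tags in BAT and 24 in iWAT.

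Most strong sites of the brown list were also inguinal sites, and the weak sites of either list mostly were not shared. The shared sites made up 57.2% (95% interval 56.8 to 57.7) of each limited list, and no site had more than 1 partner. In the top 10% of each list the shared part was 89.0% (88.0 to 89.8) in BAT and 89.0% (88.0 to 89.8) in iWAT. It was lower with every step down the list and reached 28.9% (27.6 to 30.2) in the lowest 10% of BAT and 30.2% (28.9 to 31.5) in the lowest 10% of iWAT. In steps 2 to 6 the BAT share was the higher one, with 81.8% against 79.8% in step 2. From step 7 on the iWAT share was higher, with 41.2% against 38.5% in step 8.

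**Figure D1:**
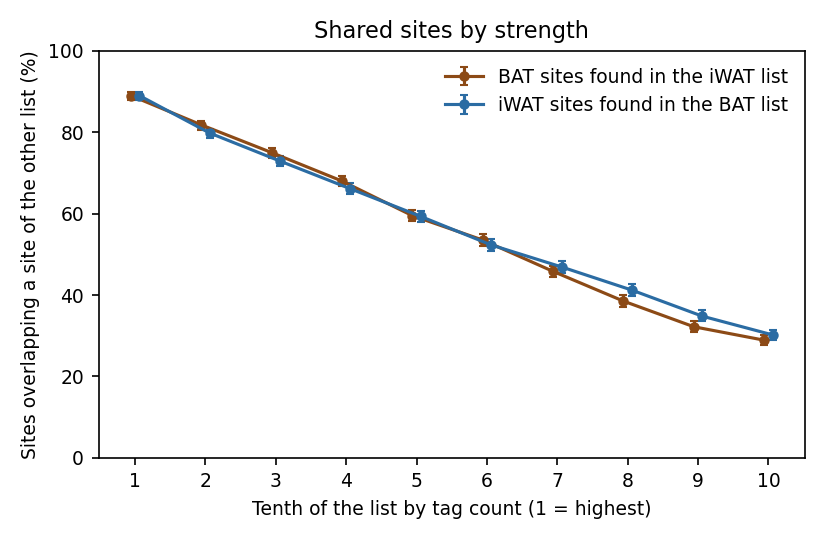
Share of sites that overlap a site of the other list (y axis, %) by step of 10% of the limited list, from the highest tag counts (1) to the lowest (10), for BAT (brown) and iWAT (blue) sites, with exact 95% intervals as bars. Both lines fall from 89.0% to about the level of 28.9% and 30.2%.

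Shared sites coincided closely in position. The median overlap was 181 bp of the 222 bp, and the median distance between the centres was 41.0 bp. When an overlap of 50% of the width was required, 48.6% of each list was shared.

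The shared sites with the most tags stood at the top of both lists. Of the 5 pairs with the highest summed ranks and a tag density at least 6 times that of the surroundings, the one on chromosome 9 at 35112914 to 35113136 held 672 tags in BAT (95% interval 622 to 725) and 742 in iWAT (690 to 797). The fold over the surroundings was 58.6 in BAT and 66.4 in iWAT. A pair on chromosome 8 at 24206006 to 24206228 had 317 tags in BAT and 336 in iWAT, with folds of 60.8 and 71.8. On chromosome 2 the pair at 98507178 to 98507400 held 774 and 795 tags but stood only 6.66 and 6.83 times above its surroundings. The pairs on chromosome 9 at 3000003 to 3000225 and at 3035800 to 3036022 held 339 and 333 tags in BAT, 362 and 332 in iWAT, and lay at the start of the assembled chromosome. All 5 were listed in eWAT, with 333 to 787 tags. The pair on chromosome 2 held 787 tags there and the pair at 3035800 held 333, close to their numbers in BAT and iWAT. Whether such high counts stand for open chromatin was not tested.

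Ranks were compared within each list, where a percentile rank of 100 stands for the highest tag count and tied sites share a mean rank. The ranks of the shared sites were related across the 27644 pairs (Spearman's rho 0.66, a description over sites of 1 library each). The middle 50% of the rank changes, BAT minus iWAT, lay between -12.8 and 14.4 points, with a median of 0.098. Changes of up to 10 points made up 41.4% of the pairs. Of the 4830 sites in the top 10% of BAT, 2776 (57.5%, 95% interval 56.1 to 58.9) had a partner in the top 10% of iWAT, and 95 paired with a site in the lower 50% of iWAT. Of the same number in iWAT, 105 paired with a site in the lower 50% of BAT.

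A change of 25 points or more was used to describe pairs as ranked higher on one side. In BAT 4038 pairs (14.6% of all shared pairs) ranked higher by that much, and in iWAT 3478 pairs (12.6%). The smallest changes counted were 25.04 points for BAT and 25.02 for iWAT, and the largest not counted were 25.00 and 24.93. The pairs higher in BAT had a median of 19 tags in BAT and 13 in iWAT. Those higher in iWAT had a median of 11 tags in BAT and 21 in iWAT. These values follow from how the pairs were chosen. At the weak end of the lists 1 tag is worth many ranks: 682 of the 7516 pairs (9.07%) differed by 2 tags or fewer. The split between the sides depended on the measure. With sites ranked by fold over their surroundings, the lists gave 5686 pairs higher in BAT and 2437 higher in iWAT.

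Of the 7516 changes of 25 points or more, 300 (3.99%) had rank intervals that did not overlap, 162 higher in BAT and 138 higher in iWAT. This was read by turning the Poisson interval of each tag number into a rank interval. Over all shared pairs, whatever the size of the change, 226 (0.818%) had BAT above iWAT and no overlap of the intervals, and 181 (0.655%) had iWAT above BAT. These are called clear pairs here. The rule was applied pair by pair, with no correction for the number of pairs. How many pairs counting error alone would set apart in this way was not tested. In the clear pairs higher in BAT the median was 40 tags in BAT and 18 in iWAT, and in those higher in iWAT 14 tags in BAT and 42 in iWAT. Their median overlap was 192 bp and 185 bp, against 181 bp over all shared pairs. The median distance between the centres was 30.0 bp and 37.0 bp, against 41.0 bp, so the sites of a clear pair lay no farther apart.

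**Figure D2:**
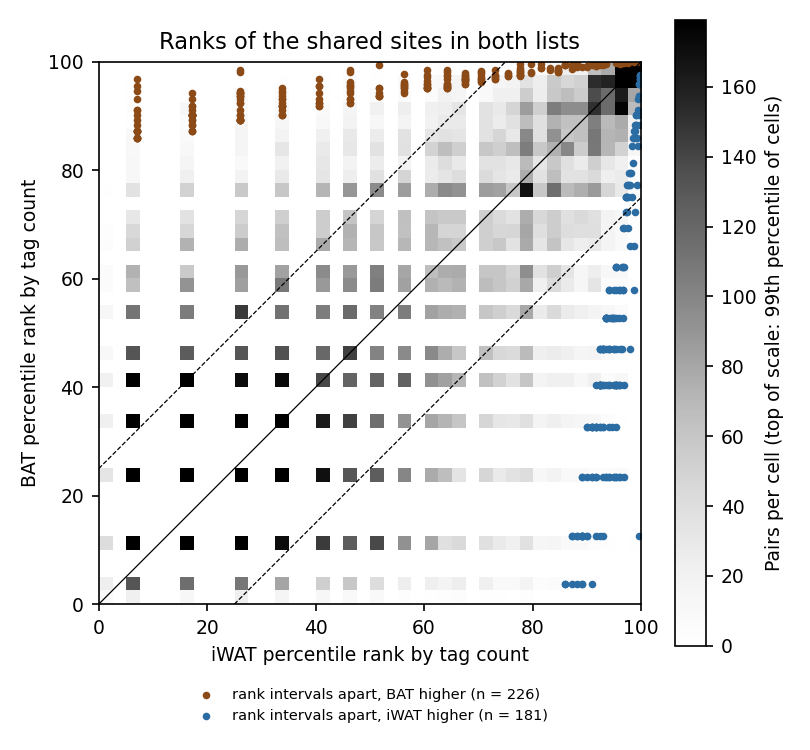
Percentile rank of the 27644 shared pairs in iWAT (x axis) and BAT (y axis), with darker cells holding more pairs, the solid line marking equal rank and the dashed lines a change of 25 points. Coloured points are the 226 pairs (BAT higher, brown) and 181 pairs (iWAT higher, blue) whose rank intervals do not overlap, and their median ranks are 95.6 in BAT for the first set and 95 in iWAT for the second.

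Among the 224 clear pairs whose BAT site was strong and at least 6 times above its surroundings, the 10 with the largest change moved by 80.1 to 89.7 points. All 10 held 11 tags in iWAT (95% interval 5.49 to 19.7), 1 tag above the lowest kept site, so their order is set by the BAT side. The last place was tied among 5 pairs, 3 of them listed in eWAT, and the named one came first by chromosome and position. Ranked by fold over the surroundings, the 10 changes were 34.3 to 70.4 points. The pair with the largest change lay on chromosome 14 at 73935329 to 73935551 and held 44 tags in BAT (32.0 to 59.1). It ranked at 96.9 in BAT and 7.13 in iWAT and was not listed in eWAT. On chromosome 18 the pair at 74923972 to 74924194 held 40 tags in BAT, 20.9 times above the surroundings, and was also not listed in eWAT.

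Chromosome 2 held 3 of the 10 pairs. The one at 137115189 to 137115411 held 38 tags in BAT at 22.2 times the surroundings, and its sites in BAT and iWAT overlapped by 221 bp. Its eWAT site held 14 tags and ranked at 21.7, on the inguinal side. The one at 73518702 to 73518924 held 32 tags in BAT, and its eWAT site, with 12 tags, ranked at 3.48. The one at 135279609 to 135279831 held 31 tags in BAT and 19 in eWAT, where it ranked at 54.1. By their ranks alone, the first and second of these were high in brown and low in both white libraries. The rank intervals of their iWAT sites ran from 0 to 62.4, and none is given for eWAT.

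The other 5 pairs were less alike in eWAT. The pair on chromosome 4 at 77165059 to 77165281 held 35 tags in BAT and ranked at 72.2 in eWAT. The one on chromosome 10 at 89841090 to 89841312 held 32 tags in BAT and ranked at 37.0 in eWAT. On chromosome 6, at 108273887 to 108274109, 29 tags in BAT went with a rank of 66.1 in eWAT, and on chromosome 1, at 58710027 to 58710249, 28 tags went with 69.2. On chromosome 13 the pair at 58596366 to 58596588, with 30 tags in BAT, was not listed in eWAT. In all, 7 of the 10 were listed in eWAT, among them 6 of the 9 above the tied place. Of all clear pairs higher in BAT, 85.4% were listed there.

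On the inguinal side, 181 clear pairs met the same rule, and the 10 with the largest change moved by -87.2 to -79.9 points. Their BAT sites held 9 or 10 tags. Ranked by fold over the surroundings, the 10 changes were -71.6 to -1.50 points, and 7 were 25 points or more in size. All 10 were listed in eWAT, beside 92.8% of all clear pairs higher in iWAT. The pair with the largest change lay on chromosome 15 at 97292893 to 97293115 and held 10 tags in BAT (95% interval 4.8 to 18) and 77 in iWAT (60.8 to 96.2). It ranked at 12.5 in BAT, 99.7 in iWAT and 95.7 in eWAT, where it held 44 tags. By rank it was thus high in both white libraries and low in the brown one, where its rank interval ran from 0 to 67.7. Of the 20 pairs named by this rule, it had the highest tag number on the higher side. Ranked by fold over the surroundings, its change was -23.0 points.

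Chromosome 15 held 2 more of these pairs, 20.8 kb apart. The pair at 96682646 to 96682868 held 10 tags in BAT and 38 in iWAT and ranked at 83.0 in eWAT. The pair at 96703707 to 96703929 held 9 and 32 tags and ranked at 29.8 in eWAT, and its change was -1.50 points when ranked by fold. In the stretch around the 3 pairs, chosen after these values were seen, 11 of the 16 shared pairs ranked higher in iWAT and 5 in BAT. By 25 points or more, 6 ranked higher in iWAT and 1 in BAT. These counts include the 3 named pairs, so part of the inguinal surplus follows from the choice of the stretch. The brown and inguinal lists held 22 and 25 sites there, and neither had a distant site. Over all of chromosome 15, 642 of 1222 shared pairs ranked higher in iWAT. By 25 points or more, 161 pairs of the chromosome ranked higher in iWAT and 154 in BAT.

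The pair on chromosome 13 at 60944233 to 60944455 held 9 tags in BAT and 35 in iWAT and ranked at 84.6 in eWAT. On chromosome 3 at 44293968 to 44294190 the tag numbers were 9 and 33, with 26.9 times the surroundings in iWAT, and on chromosome 4 at 119039671 to 119039893 they were 9 and 33 at 35.5 times. These ranked at 69.2 and 29.8 in eWAT. The other pair of chromosome 4, at 104920877 to 104921099, held 10 and 37 tags and ranked at 81.2 in eWAT, with an overlap of only 69 bp between its brown and inguinal sites. On chromosome 7 the pair at 143905139 to 143905361 held 9 and 30 tags and ranked at 79.3 in eWAT, and the pair at 139286359 to 139286581, also with 9 and 30 tags, was listed in eWAT but too low for a rank in its limited list. On chromosome 14 the pair at 24912653 to 24912875 held 9 and 31 tags and ranked at 37.0 in eWAT. Of the 9 ranks in eWAT, 6 were above 50 and 3 below, so the eWAT rank was not high at every site.

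The eWAT library gave a reading of the clear pairs that did not enter their choice. The clear pairs higher in iWAT were listed in eWAT in 168 of 181 cases (92.8%, 95% interval 88.0 to 96.1), and those higher in BAT in 193 of 226 (85.4%, 80.1 to 89.7). A pair counted as listed where either of its sites overlapped an eWAT site. Over all shared pairs the share was 80.8% (80.4 to 81.3), against 78.8% by the BAT site alone and 78.4% by the iWAT site alone. The clear pairs were mostly strong on their higher side, so strong shared sites are closer in strength, but they were counted by the list's own site alone. Of these, 88.7% (88.0 to 89.3) in BAT and 89.5% (88.9 to 90.1) in iWAT overlapped an eWAT site. Where eWAT had a rank in its list, limited to the same length, its median rank was 85.9 for the 165 clear pairs higher in iWAT, between 95 in iWAT and 47.1 in BAT. For the 186 clear pairs higher in BAT it was 72.2, between 95.9 in BAT and 60.5 in iWAT. The middle 50% of the eWAT ranks ran from 72.2 to 94.8 and from 50.4 to 90.3.

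Over all shared pairs with an eWAT rank, that rank was nearer to the brown than to the inguinal rank in 47.4% (46.8 to 48.1, 10087 of 21260). In the clear pairs it was nearer to BAT in 77 of the 186 pairs higher in BAT (41.4%, 95% interval 34.2 to 48.8) and in 40 of the 165 pairs higher in iWAT (24.2%, 17.9 to 31.5). The interval of the first share includes the share over all pairs, and that of the second lies below it. Of all shared pairs 72.8% lay within 25 points, so their share is not one for changes of this size. With ranks taken only among regions of all 3 limited lists, the shares nearer to BAT were 33.9% (27.1 to 41.2) and 30.9% (24.0 to 38.6). No share over all pairs was taken with these ranks. For the larger set of pairs with changes of 25 points or more, the reading depended on that choice. The shares nearer to BAT were 54.3% (52.4 to 56.2) on the brown side and 35.1% (33.3 to 37.0) on the inguinal side, and 43.9% (42.1 to 45.8) and 45.0% (43.1 to 46.8) with ranks among regions of all 3 lists.

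**Figure D3:**
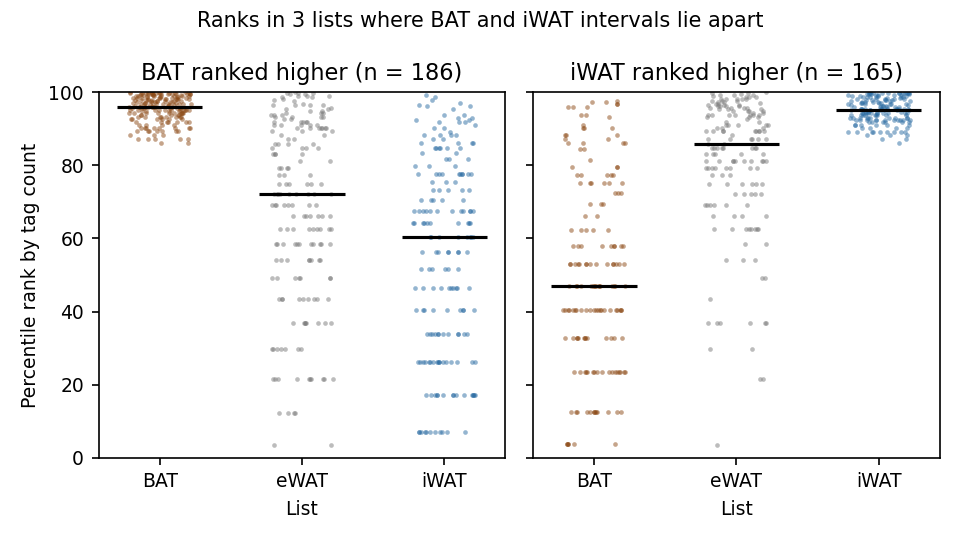
Percentile rank (y axis) in the BAT, eWAT and iWAT lists of the clear pairs with a rank in all 3, 186 with BAT higher (left) and 165 with iWAT higher (right); each point is a site and each black line a median. The eWAT medians are 72.2 and 85.9, and the spread in BAT and iWAT on the higher side follows from how the pairs were chosen.

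Changes of rank were shared by close neighbours. Among neighbouring shared pairs up to 2 kb apart that both moved by 25 points or more, 81 of 101 (80.2%, 95% interval 71.1 to 87.5) moved in the same direction. From 2 to 10 kb the share was 70.1% (64.7 to 75.2, 216 of 308). It was 57.0% (53.5 to 60.4) from 10 to 50 kb, 57.3% (53.3 to 61.2) from 50 to 200 kb and 48.2% (41.8 to 54.6) beyond 200 kb. Over all neighbours up to 2 kb apart, Spearman's rho between their changes was 0.24, a description over 1579 neighbours from the same pair of libraries. With sites ranked by fold over their surroundings the share up to 2 kb was 53.0% (40.3 to 65.4, 66 neighbours). Neighbours at that distance can lie in each other's surroundings, and the part this plays was not tested.

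**Figure D4:**
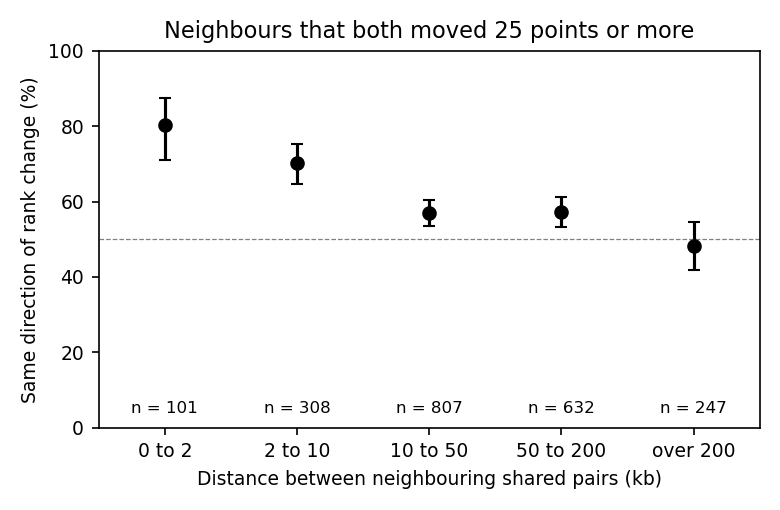
Share of neighbouring shared pairs that moved in the same direction (y axis, %) by the distance between them in kb (x axis), among neighbours that both moved by 25 points or more. Points carry exact 95% intervals, n is the number of neighbours, and the dashed line marks 50%; the share goes from 80.2% at up to 2 kb to 48.2% beyond 200 kb.

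Stretches of 1 Mb were then searched for changes on 1 side, a step chosen after the values above were seen. For each stretch the pairs 25 points or more higher and the distant sites of each list were added up. Of 2303 stretches with a shared pair or a distant site, 57.6% held such sites of both sides, and in 76.7% the numbers differed by 2 or fewer. The stretches named next were picked for their difference, so a surplus on that side follows from the choice. Most of their pairs had overlapping rank intervals, and only 5 clear pairs of the named side fell in them.

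The stretch with the most brown surplus ran from 103000001 to 104000000 on chromosome 3. It held 8 pairs and 2 distant sites on the brown side and none on the inguinal side. Of its 18 shared pairs 11 ranked higher in BAT, and the median change over all 18 was 6.73 points. Within it the pair at 103691417 to 103691639 was the strongest, with 48 tags in BAT and 22 in iWAT. The pairs at 103656807 to 103657029 and 103886807 to 103887029 held 27 and 15, and 20 and 13 tags. Both distant BAT sites, at 103130442 to 103130664 and 103590963 to 103591185, held 23 tags and were listed in eWAT. Of all 530 distant BAT sites 41.7% were listed there.

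Chromosome 3 held 2 more such stretches. From 10000001 to 11000000, 18 of 21 shared pairs ranked higher in BAT, with a median change of 13.4 points over all 21, and the distant site at 10213952 to 10214174 held 35 tags. From 30000001 to 31000000, 10 of 18 shared pairs ranked higher in BAT, and the median change was 0.393 points. The pairs at 30382176 to 30382398 and 30445925 to 30446147 held 28 and 29 tags in BAT and 12 each in iWAT, and both were clear pairs. On chromosome 10, from 117000001 to 118000000, 10 of 12 shared pairs ranked higher in BAT, with a median change of 36.1 points over all 12. The largest change there was at 117425101 to 117425323, with 24 tags in BAT and 12 in iWAT.

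On the inguinal side, the stretch from 86000001 to 87000000 on chromosome 16 held 7 pairs and 6 distant sites, against 1 pair of the brown side. Of its 28 shared pairs, 22 ranked higher in iWAT, with a median change of -12.1 points over all 28. The distant site at 86501451 to 86501673 held 25 tags with a fold of 18.1, and the nearest brown site was 46.0 kb away. The next distant sites, at 86640351 to 86640573 and 86378654 to 86378876, held 30 and 29 tags. In all, 4 of the 6 distant sites were listed in eWAT, beside 56.6% of all 608 distant iWAT sites.

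The stretch from 60000001 to 61000000 on chromosome 13 held 8 pairs and 3 distant sites on the inguinal side and none on the brown side, and 25 of its 30 shared pairs ranked higher in iWAT (median change -11.9 points). It includes the named pair at 60944233 to 60944455 and, at 60399995 to 60400217, a pair with 9 tags in BAT and 29 in iWAT. All 3 distant sites were listed in eWAT. The stretch from 117000001 to 118000000 on chromosome 6 held 8 pairs and 3 distant sites of the inguinal side against 1 pair of the brown side, and 14 of its 19 shared pairs ranked higher in iWAT (median change -18.8 points). Its window from 117200001 to 117300000 held 5 of these pairs, the most of any window of 100 kb on the inguinal side. The distant site at 117415452 to 117415674, with 43 tags, was not listed in eWAT. On the brown side 10 windows held the highest number, 4 each. The one from 95600001 to 95700000 on chromosome 11 came first by summed change. Its median was 36.5 points over its 6 shared pairs, and it also held 1 distant iWAT site. Further 1 Mb stretches of the search held sites of both sides. From 80000001 to 81000000 on chromosome 10, 9 pairs of the brown side went with 1 distant iWAT site. On chromosome 2, from 137000001 and from 165000001, 7 and 8 pairs of the inguinal side went with 2 and 3 of the brown side. The only clear pair in the stretch from 137000001 was higher in BAT.

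Unshared strong sites formed a small class in both lists. In BAT 1981 of the 12077 strong sites (16.4%, 95% interval 15.7 to 17.1) had no overlapping iWAT site, and in iWAT 2132 (17.7%, 17.0 to 18.3) had no overlapping BAT site. Most had a site of the other list close by: 1451 in BAT and 1524 in iWAT lay within 1 kb, at a median gap of 98.0 and 103.0 bp. The distant sites, beyond 1 kb, were 530 in BAT, or 4.39% (4.03 to 4.77) of strong sites, and 608 in iWAT, or 5.03% (4.65 to 5.44). The nearest of them lay 1002 and 1003 bp from the other list, with 27 and 26 tags, and the last sites left out lay at 997 and 1000 bp, with 26 and 25 tags. Of the distant BAT sites, 125 had a weaker iWAT site within 1 kb among those beyond the limit, and 92 overlapped one. No such sites exist for the distant iWAT sites, since the BAT list was used whole. Ranked by fold, the lists gave 1576 distant BAT and 3276 distant iWAT sites.

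The distant sites stood less far above their surroundings than strong sites as a whole. Their median tag density was 7.17 times that of the surroundings in BAT and 10.3 times in iWAT, against 12.7 and 13.7 for all strong sites. A density under 5 times, close to the lowest listed value of 4, was found in 24.3% of the distant BAT sites and 15.8% of the distant iWAT sites, against 3.68% and 2.60% of all strong sites. A site just under that lowest value in the other library would not be listed there, and the part this plays was not tested. In addition, fewer of them stood alone: 28.3% and 29.8% had no site of their own list within 10 kb, against 38.7% and 38.0% of strong sites. Their focus ratio, the authors' measure of how sharply tags are centred, was much the same, with medians of 0.714 and 0.711 against 0.703 and 0.706. The median distance to the other list was 4.75 kb in BAT and 5.82 kb in iWAT, and 169 and 226 distant sites lay over 10 kb away.

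A larger share of the distant inguinal sites than of the distant brown sites was listed in eWAT. Of the distant iWAT sites 344 of 608 (56.6%, 95% interval 52.5 to 60.6) overlapped an eWAT site, and of the distant BAT sites 221 of 530 (41.7%, 37.5 to 46.0). Over the whole limited lists the shares were 63.2% (62.8 to 63.6) in iWAT and 61.3% (60.9 to 61.7) in BAT, and over all unshared sites 42.8% (42.2 to 43.5) and 37.9% (37.2 to 38.5). A higher inguinal share was thus not limited to the distant sites. Among strong shared sites the shares were close, 89.5% (88.9 to 90.1) in iWAT and 88.7% (88.0 to 89.3) in BAT. Among unshared strong sites within 1 kb of the other list they were 54.5% (52.0 to 57.0) and 54.2% (51.6 to 56.8). At a density of at least 6 times the surroundings, which 446 distant iWAT and 326 distant BAT sites had, the shares were 67.5% (62.9 to 71.8) and 52.8% (47.2 to 58.3). Over 10 kb from the other list they were 63.7% (57.1 to 70.0) of 226 and 52.7% (44.9 to 60.4) of 169, with intervals that overlap. No eWAT site lay within 1 kb of 272 distant BAT and 202 distant iWAT sites. Of the 272, 33 had a weaker iWAT site within 1 kb beyond the limit, so 239 distant BAT and 202 distant iWAT sites had no site of either other full list within 1 kb.

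**Figure D5:**
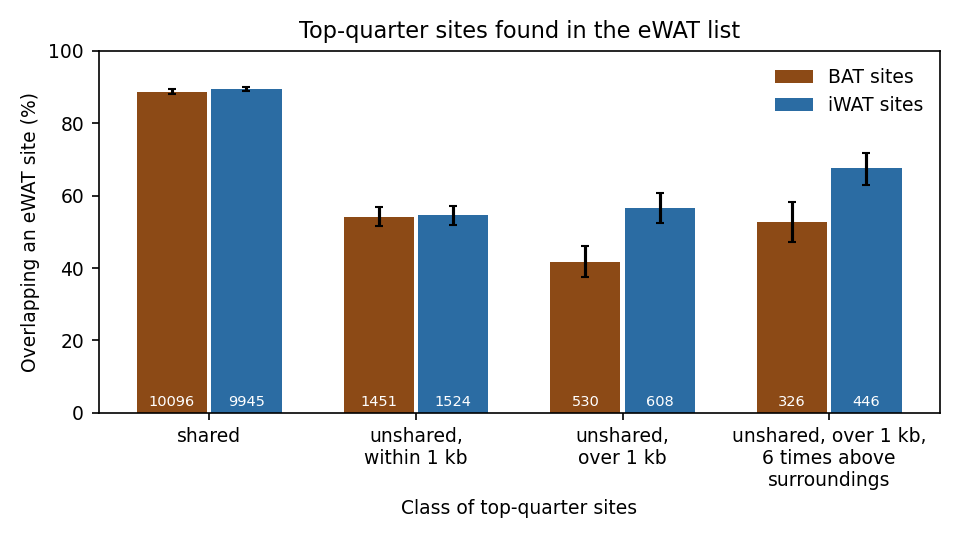
Share of strong sites that overlap an eWAT site (y axis, %) in 4 classes by their relation to the other list, for BAT (brown) and iWAT (blue); error bars are exact 95% intervals and the numbers in the bars are sites. The bars are level for shared sites (88.7% and 89.5%) and stand apart for sites over 1 kb from the other list (41.7% and 56.6%).

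Over all distant sites, whatever their fold, the highest tag number was 208 in iWAT and 54 in BAT. The 10 distant iWAT sites with the most tags, among those at least 6 times above their surroundings, held 44 to 61 tags. All 10 were listed in eWAT, beside 67.5% of all 446 distant iWAT sites with that density. The lowest places were tied among 3 sites, of which the 2 with the higher fold were named and the other was not listed in eWAT. The first lay on chromosome 6 at 51123187 to 51123409 with 61 tags (95% interval 46.7 to 78.4) and 48 in eWAT, 2.21 kb from the nearest BAT site. On chromosome 5 the site at 45490213 to 45490435 had 51 tags, a fold of 14.5 and 29 tags in eWAT, 20.5 kb from the nearest BAT site. The site on chromosome 14 at 120674512 to 120674734 also held 51 tags and 45 in eWAT, 1.45 kb away. Of these 3, the site on chromosome 5 was the only one with no brown site within 10 kb. In eWAT, the deeper library if the scaling total was common, they ranked at 83.0 to 97.0.

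Of these 10 sites, 5 lay more than 10 kb from a BAT site. Beside the one on chromosome 5 just given, the site at 119263081 to 119263303 on the same chromosome held 45 tags at 21.8 times the surroundings, 36.1 kb away, with 14 tags in eWAT. On chromosome 10, at 21693456 to 21693678, there were 44 tags with a fold of 24.9, 21.6 kb away, with 17 in eWAT. On chromosome 2, at 126165188 to 126165410, there were 44 tags with a fold of 22.5, 24.0 kb away, with 24 in eWAT. On chromosome 17, at 71199243 to 71199465, there were 48 tags with a fold of 6.01, 12.6 kb away, with 40 in eWAT. The remaining sites lay on chromosome 3 at 145314595 to 145314817 (49 tags), on chromosome 2 at 163421965 to 163422187 (46 tags) and on chromosome 6 at 4367388 to 4367610 (46 tags).

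The 10 distant BAT sites chosen in the same way held 38 to 51 tags, and 4 were listed in eWAT, beside 52.8% of all 326 with that density. The last 3 places were tied among 5 sites, 2 of them listed in eWAT, and went to those with the higher fold. None lay more than 10 kb from an iWAT site, and 7 stood less than 8 times above their surroundings. The first lay on chromosome 1 at 58672235 to 58672457 with 51 tags (95% interval 38.0 to 67.1), 6.52 times above the surroundings and 4.76 kb from the nearest iWAT site, and held 36 tags in eWAT. It lay 37.6 kb from the named pair of chromosome 1 that ranked higher in BAT. On the same chromosome, the site at 34104407 to 34104629 held 39 tags and 34 in eWAT, and the site at 51800859 to 51801081 held 39 tags at 12.9 times the surroundings and 14 in eWAT. The site on chromosome 5 at 30498826 to 30499048 held 38 tags and 22 in eWAT.

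The other 6 were listed in BAT but not in eWAT. Those on chromosome 9 at 54424106 to 54424328 (39 tags) and on chromosome 8 at 95732344 to 95732566 (38 tags) had the highest densities of the 10, 14.9 and 18.1 times the surroundings. Both overlapped a weaker iWAT site beyond the limit, so they are not absent from the full inguinal list. Those on chromosome 4 at 40794176 to 40794398 (43 tags), chromosome 17 at 33921827 to 33922049 (42 tags), chromosome 11 at 68927627 to 68927849 (40 tags) and chromosome 15 at 79154074 to 79154296 (38 tags) stood 6.39 to 6.97 times above their surroundings. Their nearest iWAT sites were 1.35 to 4.09 kb away.

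The windows of 100 kb with the most unshared sites of any strength held 8 to 10 of the 20664 in each list. In BAT the window from 68200001 to 68300000 on chromosome 14 held 10 unshared sites of its 11, with 6 iWAT sites in the same window and 1 shared pair. On chromosome 16 the window from 91700001 to 91800000 held 9, and on chromosome 3 the window from 107500001 to 107600000 held 8, as did 5 other windows with lower summed tag counts. In the latter, 3 of the unshared BAT sites were strong and 2 distant. In iWAT the window from 60500001 to 60600000 on chromosome 13 held 10 unshared sites of its 15, 6 of them listed in eWAT. It lies inside the 1 Mb stretch of chromosome 13 described above. On chromosome 6 the window from 87200001 to 87300000, and on chromosome 15 that from 97600001 to 97700000, also held 10 unshared sites each, of which 6 and 2 were listed in eWAT. In the BAT windows 3 of 10, 2 of 9 and 1 of 8 unshared sites were listed there. Over all unshared sites the share in eWAT was 42.8% in iWAT and 37.9% in BAT. A large part of these unshared sites was weak: strong ones numbered 1, 1 and 3 in the BAT windows and 3, 3 and 0 in the iWAT windows.

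Across whole autosomes the rank changes did not lean far to either side. Moves in opposite directions cancel in a median. On chromosome 1, for example, 303 of 1912 pairs ranked 25 points or more higher in BAT and 229 in iWAT. The median rank change of the 19 autosomes lay between -0.91 and 1.18 points, and the shared part of the BAT sites between 55.0% and 60.1%. On the X chromosome the median change was 2.37 points over 488 pairs, and 51.6% of the BAT sites were shared. On the Y chromosome 31 of 33 shared pairs ranked higher in BAT, with a median of 14.9 points. Both libraries came from male mice, and these few pairs had a median density of 7.01 times the surroundings in the list where it was lower, against 8.93 to 9.91 on the autosomes.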

How the data were processed

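The data are 1 deposited list of hypersensitive sites per depot. STAR, HOMER and mm9 appear in the submitters' processing notes (roles, versions and settings: not given in the sources used here), and the column names are those of HOMER's findPeaks. Per the file headers, the authors' lists hold a normalized tag count (a signal), a peak score, a focus ratio (a fraction), a fold (ratio) over the surroundings with its p-value, and a clonal fold.

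Sites were ordered by tag count, with ties ordered by fold and then position. Of 5913 iWAT sites tied at the limit of 9.85 normalized tags, 841 were kept, and of those tied at the limit of strong sites 794 of 1094 in iWAT and 601 of 1167 in BAT counted as strong. Tag numbers are normalized counts divided by the step that made values whole, within 0.05 (0.005 below 10). The code was tested on simulated lists.

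Named sites follow a rule: the 10 largest clear rank changes per side, the 10 highest distant sites per list (both with a fold of at least 6), the 3 windows with most unshared sites per list and the 5 highest pairs. Members, lists and rule were chosen with earlier results of these data known. Gene lists and motifs need mm9 annotation and sequence, which were not used here. Python 3.11.15, numpy 2.4.6, pandas 2.3.3, scipy 1.17.1 and matplotlib 3.10.9 were used.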

Additional observations from a re-analysis of the deposited data

How the results depend on the processing

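No paired analysis was possible because each depot has 1 library. The shared part of BAT and iWAT sites was 48.6% and 48.6% with an overlap of 50% of the width and 64.2% and 49.0% with full lists. With tied iWAT sites kept it was 60.1% and 54.4%, and with them left out 57.8% in iWAT. Pairs with a rank change numbered 1531 (BAT) and 1415 (iWAT) at 40 points, and 162 and 138 with rank intervals apart as well as 25 points. Distant sites numbered 258 and 326 at 5 kb, 89 and 87 in the top 10%, 326 in BAT at 6 times the surroundings, and 1576 and 3276 when ranked by fold. The share in eWAT was 47.0% and 65.3% within 500 bp, 52.8% and 67.5% at 6 times the surroundings. In BAT it was 35.8% with the highest eWAT sites and 34.6% with the full iWAT list searched. The eWAT rank was nearer to BAT in 43.9% and 45.0% of pairs (33.9% of clear BAT pairs) with ranks among regions of all 3 lists, and in 52.2% and 31.7% at 40 points. Neighbours within 2 kb moved together in 53.0% when ranked by fold. These values lie outside the 95% interval of the reported share, or over 1.5 times from the reported count, and the cause was not tested. The tie settings, the full list and 6 times settings for the share in eWAT, and those for eWAT ranks and neighbours were chosen after seeing the data. The 20 named pairs kept the direction of their change in all 3 alternatives to the ranking, but by fold the changes were 34.3 to 70.4 points (BAT) and -71.6 to -1.50 (iWAT). The gene list alternative was not run.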
